A study of Sus scrofa with 6 samples.

Results

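The MOS and MAP kinase arrest pathway was described here by 7 pig genes: MOS, the MEK genes MAP2K1 and MAP2K2, the ERK gene MAPK3, and the RSK genes RPS6KA1, RPS6KA2 and RPS6KA3. They were taken by symbol, with earlier results of these data known, and each matched 1 of the 25880 Ensembl genes of the count files. All 7 had at least 1 count in the series, as had 16852 of the 25880 genes. The libraries came from oocytes of Sus scrofa at metaphase II (MII), 3 labelled control and 3 labelled MAL, for malathion, an organophosphate insecticide. Cumulus-oocyte complexes were aspirated from antral follicles of slaughterhouse ovaries. Malathion was brought to 1 mM in the maturation medium from a 0.75 M solution in DMSO, and the labels do not say whether control oocytes received DMSO. RNA was copied and amplified by a modified Smart-seq2 method, which starts from the poly(A) tail, so a level here is that of the tailed RNA it captured. The labels give neither breed nor age, and neither the number of oocytes in a library nor whether replicates came from separate cultures. The p-values therefore measure the spread between these libraries, which may be technical.

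MOS is a germ cell kinase that phosphorylates and activates the MEK kinases MAP2K1 and MAP2K2, which activate ERK kinases such as MAPK3, which in turn activate the RSK kinases. In vertebrate eggs this cascade belongs to the cytostatic factor that keeps the egg at metaphase II until fertilisation, in part by holding the anaphase-promoting complex inactive. MOS messenger RNA is stored in the growing oocyte and is translated when its tail is lengthened during maturation, so that a transcript level is not a level of kinase activity.

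Gene counts summed to 25816040 to 42312341 per library. Levels are CPM, the counts of a gene scaled to these sums, and a count of 0 allows up to 0.0709 to 0.116 CPM, by library. The replicate 3 libraries of both groups stood apart. They held counts for 8344 (control) and 8492 (malathion) genes, against 12211 to 14707 in the other 4. The 12 matched oocyte markers summed to 4285 and 3020 CPM there and to 30693 to 84166 CPM elsewhere, with DDX4 at 0 in both and FIGLA at 0 in control replicate 3. ZP2 and NOBOX were instead highest in malathion replicate 3. ZP2 stood at 2158 CPM there against 23.9 to 594 CPM in the other libraries, and NOBOX at 54.2 against 0.170 to 20.5 CPM. The 13 matched cumulus and granulosa markers summed to 36.6 and 66.6 CPM in the 2 replicate 3 libraries and to 427 to 729 CPM in the others, most of it VCAN and KITLG. AMH was at 0 in all 6, and 9 markers of other ovarian and blood cells (theca, stroma, leukocytes, red cells and endothelium) reached 15.4 CPM at most in sum. In libraries of whole oocytes, fewer cells of a type and less RNA per cell cannot be told apart. Fits of MOS, MAP2K1 and RPS6KA3, and of some list genes, are given below with and without the replicate 3 libraries. Where 3 values follow each other for a group, they belong to its replicates 1, 2 and 3 in that order.

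MOS, the entry kinase of the cascade (ENSSSCG00000006248), was present in every library. It stood at 339, 366 and 2.85 CPM in the controls and at 281, 388 and 1458 CPM with malathion. The 4 libraries of replicates 1 and 2 were close to each other, control replicate 3 lay far below them and malathion replicate 3 above them, so the groups overlapped. By counts MOS ranked between 455 and 559 among the genes of those 4 libraries, 2502 of 8344 in control replicate 3 and 129 of 8492 in malathion replicate 3. The group means were 236 ± 202 CPM in control and 709 ± 650 CPM in malathion libraries (SD, n = 3 each). Malathion replicate 3, the library with the largest sum, alone held 62.2% of the 99151 MOS counts of the series and 51.4% of its CPM summed over the libraries.

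MAP2K1, which encodes the kinase MEK1 that MOS activates (ENSSSCG00000004943), stood at 155, 120 and 6.72 CPM in the controls and at 100, 172 and 12.1 CPM with malathion. Both replicate 3 libraries were low, and the ranges of the groups overlapped almost fully. The means were 94.1 ± 77.7 CPM in control and 94.8 ± 80.2 CPM in malathion libraries (SD, n = 3 each), a difference smaller than the spread within either group.

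The other MEK gene, MAP2K2 (ENSSSCG00000027127), was close to absent. It had 3, 7 and 0 counts in the controls and 0, 1 and 0 counts with malathion, at most 0.258 CPM. Of all counts of both MEK genes, 99.9% fell on MAP2K1 (15655 of 15666, Wilson 95% interval 99.87% to 99.96%). This share is of reads, not of molecules, because transcript lengths were not used here. It was 99.8% or more in each of the 6 libraries, so the weight of MAP2K1 among MEK reads held in both groups and in the replicate 3 libraries.

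MAPK3, the ERK1 gene (ENSSSCG00000040682), was also at the edge of detection. It had 0, 6 and 0 counts in the controls and 8, 4 and 0 counts with malathion, at most 0.310 CPM. Each group held at least 1 library with none.

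Of the RSK genes, which encode the kinases below ERK, RPS6KA3 (RSK2, ENSSSCG00000012163) was the one with counts in every library. It stood at 23.9, 25.0 and 1.26 CPM in the controls and at 18.6, 23.9 and 1.96 CPM with malathion. As for MAP2K1, both replicate 3 libraries were low and the groups overlapped. Means were 16.7 ± 13.4 CPM in control and 14.8 ± 11.4 CPM in malathion libraries (SD, n = 3 each), which differed by less than the spread within the groups.

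RPS6KA1 (RSK1, ENSSSCG00000003558) had 16, 28 and 0 counts in the controls and 1, 0 and 0 counts with malathion. It made up 2.35% of the counts of the 3 RSK genes in control replicate 1 (Wilson 95% interval 1.45% to 3.79%) and 3.95% in control replicate 2 (2.75% to 5.66%). The share was 0.208% in malathion replicate 1 (0.0367% to 1.17%), and 0 of 663 counts in malathion replicate 2, which allows up to 0.452%. These shares are of 45 reads in all and do not measure the spread between libraries. Control replicate 3 had 0 of 37 RSK counts (up to 8.11% allowed) and malathion replicate 3 had 0 of 83 (up to 3.61%), so the groups overlapped at 0, and in both libraries the share allowed by a count of 0 was above that of control replicate 1. Such intervals hold counting error alone, because reads copied from 1 molecule by PCR are not independent and carry no molecular identifier.

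RPS6KA2 (RSK3, ENSSSCG00000004022) had 2 counts in control replicate 2 and 0 in the other 5 libraries. No fold can be given, since both groups lay at or under the limit set by a count of 0.

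**Figure D1:**
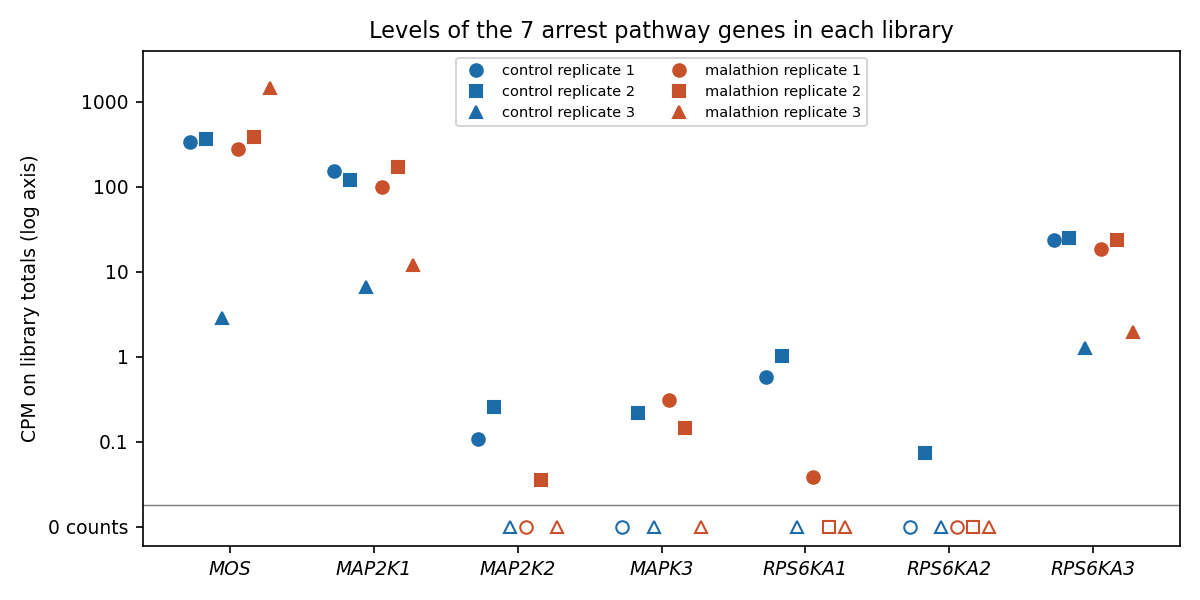
CPM on library totals (log axis) of each of the 7 genes in each of the 6 libraries, with colour for the group and marker shape for the replicate number. Open symbols under the grey line mark libraries with 0 counts. MOS, MAP2K1 and RPS6KA3 have counts in all libraries, the other 4 genes stay at or below 1.03 CPM, and the replicate 3 triangles of MOS lie at 2.85 and 1458 CPM.

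The 3 genes with counts throughout did not keep 1 proportion. MOS had 2.18, 3.05 and 0.424 counts for each MAP2K1 count in the controls and 2.81, 2.25 and 121 with malathion. MAP2K1 had 6.50, 4.81 and 5.35 counts for each RPS6KA3 count in the controls and 5.39, 7.22 and 6.16 with malathion. The MEK to RSK ratio thus stayed between 4.81 and 7.22 in all 6 libraries, while the MOS to MEK ratio left its range of 2.18 to 3.05 in the replicate 3 libraries, downward in control and upward in malathion. The ratios carry the lengths of the transcripts, so they compare libraries and not the abundance of 1 gene with another.

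**Figure D2:**
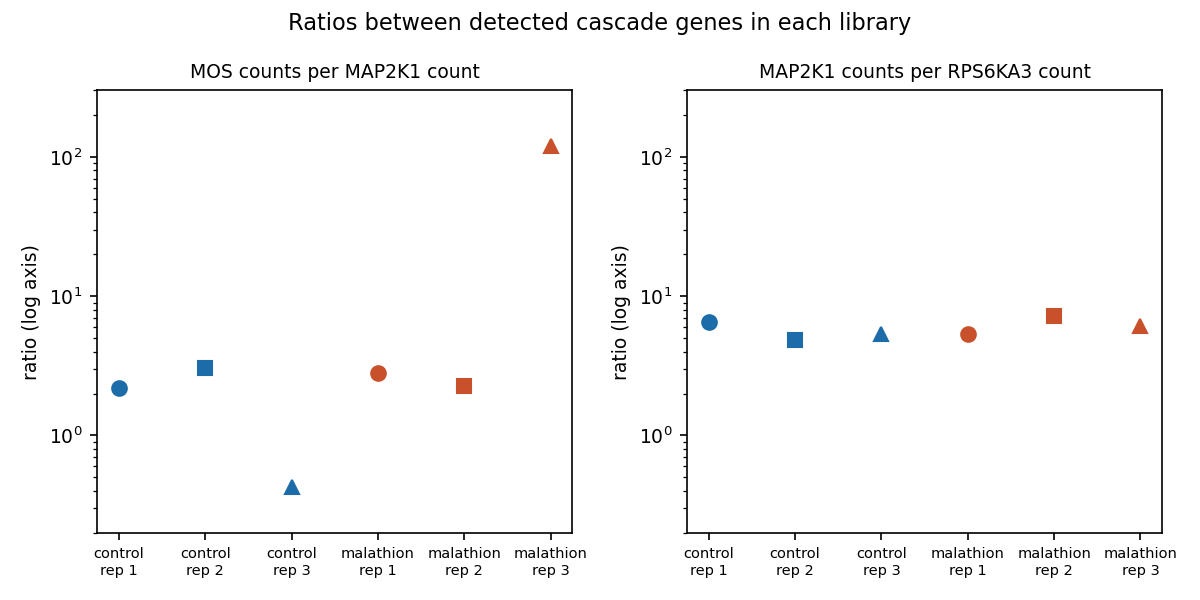
Counts of MOS per count of MAP2K1 (left) and of MAP2K1 per count of RPS6KA3 (right) in each library, on log axes of the same range. The left ratio is 0.424 in control replicate 3 and 121 in malathion replicate 3, and the right ratio stays between 4.81 and 7.22.

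The low MAP2K1 and RPS6KA3 of the replicate 3 libraries were common among genes. Of the 5339 genes with a mean of at least 10 CPM, 4362 (81.7%) were lower in both replicate 3 libraries than in each of the other 4. MOS belonged to a smaller set of 143 genes (2.68%) that were highest in malathion replicate 3 and lowest in control replicate 3, and 288 genes (5.39%) showed the opposite order. The marker sums above move with these libraries, and their part in the values of MOS, MAP2K1 and RPS6KA3 was not tested. In replicates 1 and 2 alone, the highest of the 4 libraries exceeded the lowest 1.38 times for MOS, 1.71 times for MAP2K1 and 1.33 times for RPS6KA3 (CPM plus 1), against a median of 2.01 over the 5339 genes.

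Profiles were compared over the 6 libraries by the root mean square difference of log2(CPM + 1), after each gene's own mean was subtracted, among genes tested that have a symbol. MOS was nearest to GLS2, a mitochondrial glutaminase, at 0.38, against a median of 2.60 over 9075 genes. GLS2 stood at 582, 323 and 4.95 CPM in the controls and at 468, 530 and 1378 CPM with malathion. The next were PSMB2, a proteasome subunit (0.45), DNAJC9, a co-chaperone (0.53), the polyubiquitin gene UBB (0.56), whose repeated sequence can split reads between ubiquitin genes, and CEP83, a centriole gene (0.60). MAP2K1 came at place 1011 and RPS6KA3 at place 1185 in this order, at 2.38 and 2.41. MAP2K1 was nearest to PPM1D, a phosphatase gene (0.0960), and SLC8B1, a mitochondrial ion exchanger (0.0981), and RPS6KA3 to JMJD4 (0.0687) and ACSL3, an acyl-CoA synthetase (0.0719). MAP2K1 and RPS6KA3 lay 0.34 apart. These distances describe the 6 libraries and rest in large part on replicate 3.

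**Figure D3:**
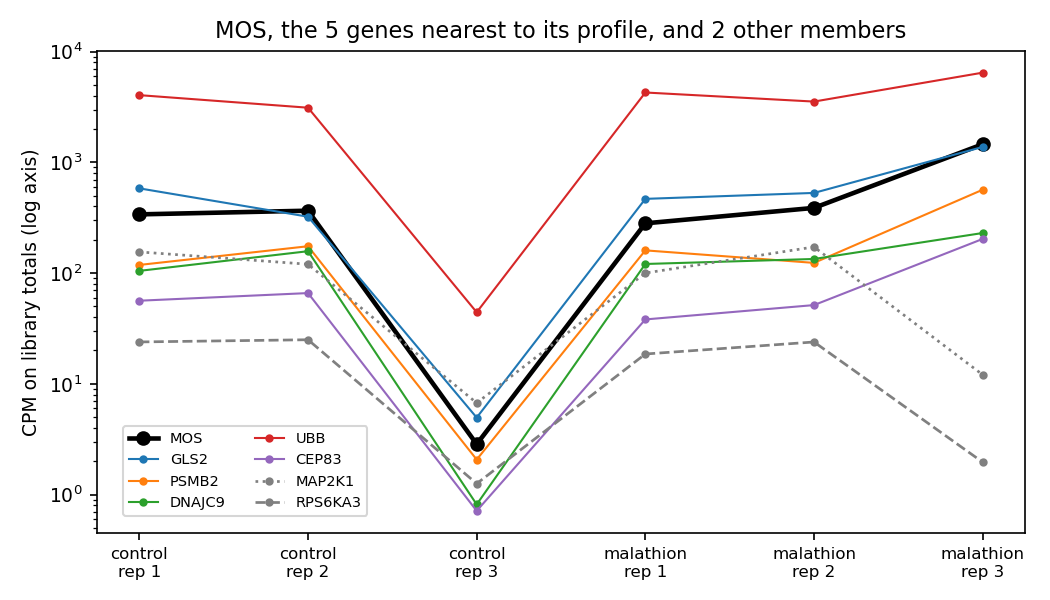
CPM on library totals (log axis) of MOS, of the 5 genes nearest to its profile and of MAP2K1 and RPS6KA3 in the 6 libraries. Lines only join the points of a gene. MOS and its nearest genes are lowest in control replicate 3 and highest in malathion replicate 3, where MAP2K1 and RPS6KA3 stand at 12.1 and 1.96 CPM.

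The series was designed to ask what malathion does to messenger RNA stored in the oocyte. Library by library, the ratios of malathion to control of the 3 genes lay within the middle 95% of the 5339 genes in replicates 1 and 2. In replicates 1, the log2 ratio (CPM plus 1) was −0.27 for MOS, −0.63 for MAP2K1 and −0.35 for RPS6KA3, and the middle 95% of the 5339 genes lay between −0.87 and 0.60. In replicates 2, it was 0.08 for MOS, 0.52 for MAP2K1 and −0.06 for RPS6KA3, within a range of −3.31 to 1.85. In replicates 3, it was 8.57 for MOS, outside the range of −6.55 to 4.90, and 0.76 for MAP2K1 and 0.39 for RPS6KA3, inside it. Only 1.11% of the 5339 genes had a ratio at least as far from 0 as that of MOS in replicates 3. For MAP2K1 in replicates 1 this share was 9.38%. None of the 3 genes had ratios of 1 sign in all 3 pairs.

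**Figure D4:**
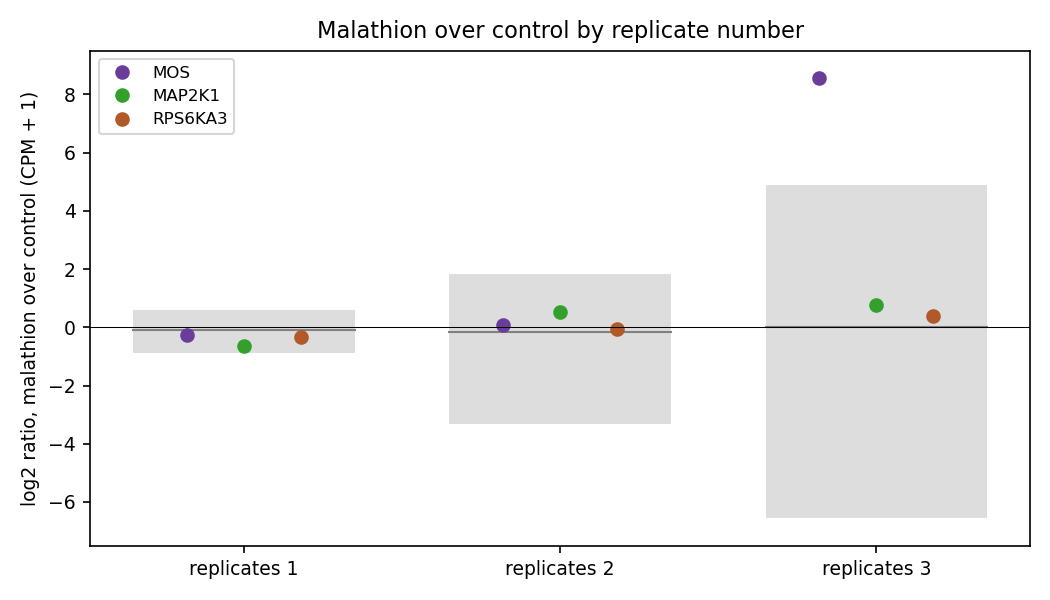
Log2 ratio of malathion to control (CPM + 1) for libraries of the same replicate number. Grey bars span the middle 95% of 5339 genes with a mean of at least 10 CPM and grey lines mark their median. MOS in replicates 3, at 8.57, is the only point outside its bar.

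No gene of the pathway was shown to change by edgeR's quasi-likelihood test. MOS, MAP2K1 and RPS6KA3 passed the filter on low counts and were tested, and 0 of the 3 passed at an adjusted p of 0.05, as did 0 of all 10678 genes tested (0%). DESeq2 and limma-voom passed 0 genes too. At an unadjusted p under 0.05 edgeR found 110 genes (1.03%), DESeq2 227 of the 9559 to which it gave a p (2.37%) and limma-voom 3 (0.0281%). None of MOS, MAP2K1 and RPS6KA3 was among them. DESeq2 put MOS at a log2 fold change of 5.48 ± 1.52 (SE) but gave it no p, so that method could not call MOS. The control and malathion values overlapped for each of the 3, and were separate for 80 of the 10678 genes (0.749%). The log2 fold change of malathion against control, on library totals, was 1.59 ± 1.84 (SE) for MOS, with a 95% interval of −2.03 to 5.20 and an adjusted p of 1.00. For MAP2K1 it was 0.01 ± 1.86, with an interval of −3.63 to 3.66. For RPS6KA3 it was −0.18 ± 2.09, with an interval of −4.27 to 3.92. The data thus left room for changes of several fold in either direction for each of these genes.

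These values have to be read against the median of all genes tested, which was −0.33 with library totals and −0.08 with TMM factors, a scaling that brings the bulk of the genes of each library to a common level. Relative to that median, MOS stood at 1.92 with library totals and 5.43 with TMM factors, MAP2K1 at 0.34 and 0.50, and RPS6KA3 at 0.15 and 0.35. With TMM factors MOS itself was at 5.35 ± 2.68 (unadjusted p = 0.0648, adjusted p = 1.00, edgeR), in a fit where 3.59% of the genes tested had an unadjusted p under 0.05. The TMM factors of the replicate 3 libraries were 0.141 in the control and 0.138 with malathion, and those of the other 4 libraries were 2.26 to 3.57. The difference of MOS rested on replicate 3. Without malathion replicate 3 its log2 fold change was 0.50 ± 1.71, and without control replicate 3 it was 1.01 ± 1.78. Without both it was −0.075 ± 0.38, with a 95% interval of −1.02 to 0.87. Relative to the median of the same fit, MOS stood at 0.39 without malathion replicate 3, 1.84 without control replicate 3 and 0.26 without both. In these 4 libraries MAP2K1 stood at −0.017 ± 0.46 (−1.13 to 1.10) and RPS6KA3 at −0.20 ± 0.50 (−1.42 to 1.01), so that for all 3 genes differences beyond about 1.42 on the log2 scale lay outside the intervals.

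**Figure D5:**
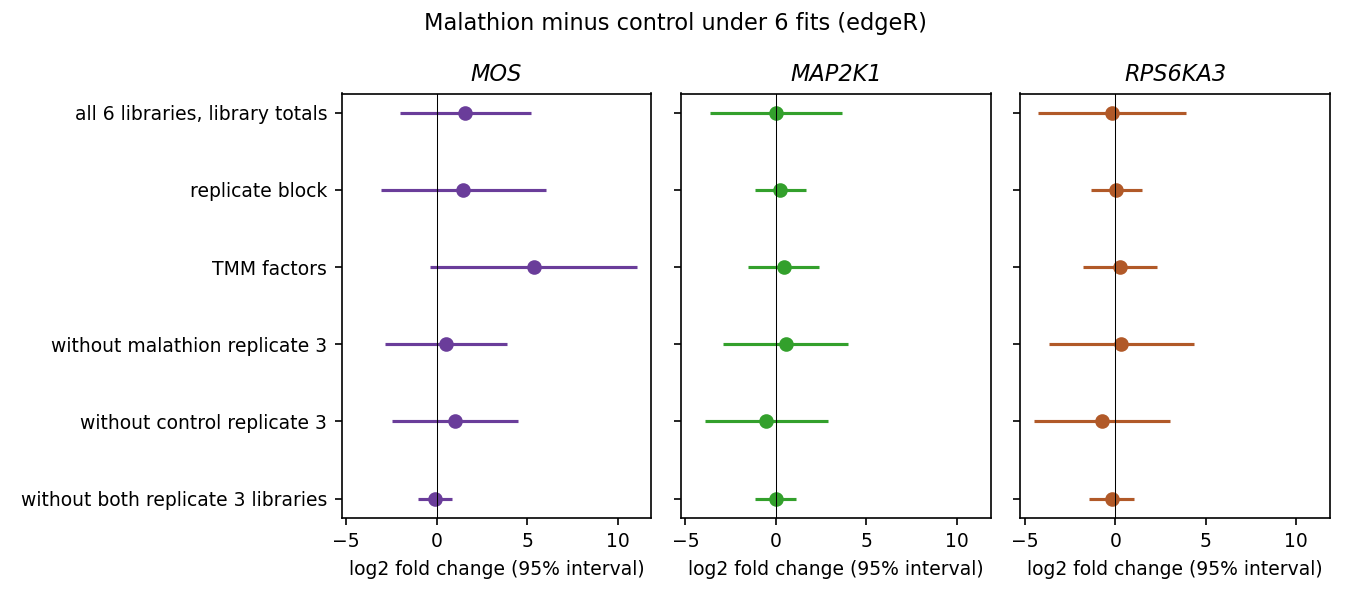
Log2 fold change of malathion minus control with its 95% interval (edgeR) for MOS, MAP2K1 and RPS6KA3 under 6 fits. Every interval includes 0, the TMM value of MOS is 5.35, and the intervals are narrowest without both replicate 3 libraries.

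The other 4 genes did not pass the filter on low counts, so the test above gave no value for them. Without a filter, the log2 fold change was −5.04 ± 3.68 for RPS6KA1, −2.99 ± 3.35 for MAP2K2 and 0.99 ± 3.30 for MAPK3, and none passed. In fits with a filter RPS6KA1 entered only where its control counts carried it over the limit, so those estimates are not given. These sizes depend on the small count that edgeR adds and are no bounds.

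The other genes of the pathway were read from 5 lists of 95 symbols, of which 87 matched an identifier. FBXO43, the RSK target that blocks the anaphase-promoting complex, was not matched and is not analysed here. With edgeR on library totals, none of the 67 list members tested passed, none had an unadjusted p under 0.05 and none had separate groups. Limma-voom gave 0 with an unadjusted p under 0.05 too. Other settings gave at most 2 such genes. These were PDPK1 and SPRED2 with TMM factors (2.99% of the 67, against 3.59% of all genes) and with DESeq2 size factors (against 3.87%). In DESeq2 they were SPRED2 and YBX2 (3.7% of the 54 with a p, against 2.37% of all genes with a p). Without control replicate 3 they were IQGAP1 and CPEB2 (2.67% of 75, against 1.61% of all genes), and without both replicate 3 libraries GSK3B and YBX2 (2.67%, against 2.23% of all genes). With no filter BAD was the only one (1 of 84, against 1.60% of all genes), with 661 of its 662 counts in control replicate 2. None of these passed after adjustment. In the lists below, brackets after a log2 fold change give its lowest and highest value when 1 library was left out, then its value with TMM factors. The median of all genes tested moved too when 1 library was left out, from −0.85 without malathion replicate 2 to 0.41 without control replicate 2. Upstream, 13 of the 17 matched genes of RAS, RAF and their scaffolds were tested, 7 with a positive and 6 with a negative fold change, with a median of 0.02 against −0.33 for all genes. NRAS, a RAS GTPase, stood at 1673, 2025 and 90.0 CPM in the controls and 1931, 1784 and 118 CPM with malathion. BRAF, a kinase that activates MEK in somatic cells, had a log2 fold change of −0.21 ± 2.08 (−0.65 to 0.33, −0.91) and stood at 22.2 to 25.4 CPM outside replicate 3. IQGAP1, a scaffold of MEK and ERK, had the lowest p of the list and, like MOS, a single high library, with 3705 CPM in malathion replicate 3 against 51.6 to 141 CPM elsewhere. Its log2 fold change was 3.90 ± 2.02 (−0.50 to 4.47, 4.69), with the lowest value without that library, and 0.060 without both replicate 3 libraries. SOS1, a RAS exchange factor, had 1.10 ± 1.94 (0.81 to 1.79, 0.55). The scaffold KSR2 had −1.31 ± 1.99 (−1.89 to 0.57, −0.93), and LAMTOR2, a part of the lysosomal scaffold of MEK1, −1.67 ± 2.74 (−3.28 to 1.11, 0.32). KSR2 and LAMTOR2 were highest in control replicate 2, at 117 and 4.76 CPM, and had their highest fold change without it.

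Among other kinases of the cascade, 6 of 9 were tested, 2 with a positive and 4 with a negative fold change (median −0.55, and 0.28 with TMM factors). PDPK1, the kinase that docks on RSK and completes its activation, stood at 24.1, 46.7 and 193 CPM in the controls and at 19.5, 27.7 and 0.496 CPM with malathion. It thus showed the opposite order to MOS over the replicate 3 libraries, with a log2 fold change of −2.47 ± 2.02 (−3.14 to −1.16, −5.95). The unadjusted p with TMM factors was 0.0103 (adjusted p = 1.00, edgeR), DESeq2 gave −6.18 with no p, and without both replicate 3 libraries the value was −0.59. MKNK1, a kinase below ERK that phosphorylates the cap-binding protein, had 0.35 ± 1.86 (−0.23 to 1.47, 0.57), and RPS6KA5 (MSK1) had 0.13 ± 2.07 (−0.45 to 0.78, 0.49). Both had their lowest value without control replicate 3.

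In the list of phosphatases and inhibitors linked to MAP kinase signalling, 14 of the 23 matched genes were tested. Of these, 3 had a positive and 11 a negative fold change (median −0.79, from −1.28 to 0.38 when a library was left out). This is 21.4% positive against 33.7% of all genes tested. The positive median arose without control replicate 2, which held the highest CPM for 9 of the 14 genes, as it did for 54.7% of all genes tested. The median of all genes tested was 0.41 in that fit. It was −0.85 without malathion replicate 2, where the list median was lowest. SPRED2, an inhibitor of RAF activation, stood at 30.3, 471 and 83.3 CPM in the controls and at 33.5, 39.6 and 0.496 CPM with malathion. Its log2 fold change of −2.99 ± 2.00 (−3.52 to −1.21, −4.46) did not pass. The unadjusted p was 0.0095 with TMM factors in edgeR (adjusted p = 1.00), and DESeq2 gave −4.68 with an unadjusted p of 0.00040 (adjusted p = 0.662). DUSP10, a MAP kinase phosphatase, had −1.93 ± 2.5 (−2.54 to −0.41, −1.47), and both genes were nearest to 0 without control replicate 2. DUSP3, another phosphatase, had 0.42 ± 2.61 (−0.89 to 1.10, −0.36), and PPP1CC, a catalytic subunit of protein phosphatase 1, 0.51 ± 1.82 (−0.17 to 0.82, 1.42). PPP1CC stood at 465 CPM in malathion replicate 3 and at 138 to 212 CPM elsewhere. Its log2 fold change without both replicate 3 libraries was −0.25. SPRED1 was high in both replicate 3 libraries, with 1953 CPM (control) and 1871 CPM (malathion), against 68.1 to 191 CPM in the others. It was picked after its values were seen.

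For the effectors of arrest and other RSK or ERK substrates, 12 of the 15 matched genes were tested, 4 with a positive and 8 with a negative fold change (median −0.58, and −0.09 with TMM factors). BUB1, a checkpoint kinase that RSK phosphorylates in frog eggs, stood at 153, 23.1 and 3.05 CPM in the controls and at 132, 155 and 2.95 CPM with malathion, with a log2 fold change of 0.70 ± 1.88 (0.14 to 2.89, 0.58). SPDYA, an activator of CDK kinases, had 1.28 ± 2.08 (0.46 to 2.30, 1.34). Both had their highest value without control replicate 1. YBX2, a germ cell protein that packages stored mRNA, had −3.62 ± 2.60 (−4.35 to 0.41, −2.99), and GSK3B, a kinase that RSK inhibits, −3.41 ± 2.75 (−4.45 to −1.51, −1.30). Both were highest in control replicate 2, at 30.7 and 14.0 CPM against at most 1.55 and 2.77 CPM elsewhere. Both had their highest fold change without that library.

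The last list held factors that control MOS and other stored mRNA through the 3′ untranslated region. Of its 23 matched genes 22 were tested, 7 with a positive and 15 with a negative fold change (median −0.15, and 0.05 with TMM factors). CPEB1, which binds the element that drives MOS polyadenylation, stood at 446, 344 and 4.78 CPM in the controls and at 476, 467 and 3.40 CPM with malathion and had a log2 fold change of 0.25 ± 1.81 (−0.33 to 0.85, 0.37). CPEB1 was low in both replicate 3 libraries, which are the lowest and the highest for MOS. CPEB2, a relative of CPEB1, stood at 632 and 2486 CPM there and at 24.5 to 69.0 CPM elsewhere, with a log2 fold change of 1.87 ± 1.86 (−1.88 to 4.41, 2.00) that was lowest without malathion replicate 3 and highest without control replicate 3. Without both of these libraries the value was 0.66. PAPOLG, a poly(A) polymerase, had −1.72 ± 1.89 (−2.46 to −1.15, −1.13), and CPSF2, a cleavage and polyadenylation subunit, 0.55 ± 1.89 (−0.011 to 1.51, 0.65). ZAR1, a binder of stored mRNA, had −1.91 ± 2.46 (−2.50 to 0.55, 0.28), was highest in control replicate 2 and had its positive value without that library.

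Immediate early genes that ERK signalling induces in somatic cells were listed as markers. Their 12 genes summed to 52.8, 190 and 285 CPM in the controls and to 36.8, 72.6 and 67.4 CPM with malathion. JUNB and ETV4 had 0 counts in all 6 libraries. EGR1 made up most of the sum in control replicate 3 (263 CPM) and malathion replicate 3 (63.8 CPM), and stood at 2.25 to 24.2 CPM elsewhere. The groups overlapped, and the sum was lower with malathion in each of the 3 same-numbered pairs. No label pairs these libraries, and the sum of control replicate 1 lay below that of malathion replicate 2. For EGR1 the log2 ratio (CPM plus 1) was −0.82, −1.22 and −2.03 in replicates 1, 2 and 3, and 16.9% of the 5339 genes above were lower with malathion in all 3 pairs. IER3 was also lower in each pair. IER2 was too, but in replicates 3 only by 0 counts against 1, and 370 of its 427 counts lay in control replicate 2. With means of 4.86 CPM in control and 0.375 CPM in malathion libraries, IER2 was not among the 5339 genes. Others were not lower in each pair, with −2.44, 0.21 and 0.62 for FOS, 1.07, 0.34 and 0 for FOSL1, and −0.14, −1.71 and 0.25 for ETV5. In replicates 2, ETV5 stood at 94.7 CPM in control and 28.3 CPM with malathion, and MYC at 22.9 and 0.0360 CPM. Of the 626 MYC counts of the series, 621 lay in control replicate 2, and control replicates 1 and 3 had 0. No test was made on these sums.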

How the data were processed

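The deposited files hold read counts per Ensembl gene, 1 column per library, with no normalization by the authors that the files show. STAR 2.5.3a, HTSeq 0.9.1 and DESeq2 1.20.0 are named in the submitters' processing notes. Their roles, the genome build, annotation and strand setting are not given in the sources used here. The 5 HTSeq rows of reads given to no gene (36.7% to 42.6% of a file) were left out of library sizes and tests. A name table paired 14857 of 25880 identifiers with a symbol, and all 7 members matched.

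CPM were computed on the sum of the gene rows. The 2 groups were tested against each other with the quasi-likelihood F test of edgeR 4.0.16 (R 4.3.3, library totals, filterByExpr with minimum count 10 and minimum total 15), two-sided, with Benjamini-Hochberg adjustment over 10678 genes and a threshold of 0.05. Library totals were the main scale because the levels are CPM on the same totals. Alternatives were TMM factors, DESeq2 size factors, DESeq2 1.42.0, limma-voom (3.58.1), no filter, the replicate number as a block, and leaving libraries out. Standard errors come from the F statistic, intervals are at 95%, and the script was tested on simulated counts.

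Control and malathion libraries with the same number departed from their group's mean together. The correlation over the genes tested was r = 0.467, 0.378 and 0.587 for replicates 1, 2 and 3. Libraries of the same number were compared as pairs, although no label pairs them. Among libraries of different number, control replicate 1 with malathion replicate 2 gave 0.439 and control replicate 2 with malathion replicate 1 gave 0.261, and pairs of a replicate 3 library with another number gave −0.541 to −0.368. Numbers 1 and 2 were thus little apart. With each group's mean subtracted, a replicate 3 library that stands apart sets the others of its group off together, the other way. These correlations therefore cannot decide whether numbers 1 and 2 are pairs.

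The members and lists were chosen with earlier results of these data known. Named in the text are the 7 members, the 2 genes of each list with the smallest p in each direction, BRAF and CPEB1, and the nearest profiles (5 for MOS, 2 for MAP2K1 and RPS6KA3). NRAS, SPRED1, BAD, the markers and the immediate early genes that are named were picked after their values were seen. Some genes that this rule would name are not reported here.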

Additional observations from a re-analysis of the deposited data

How the results depend on the processing

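No gene, member or list member that was given a p passed at an adjusted p of 0.05 under any of the 14 alternatives. DESeq2 gave no p to 1119 of the 10678 genes, MOS and some list members among them, so it could not call these. With the replicate number as a block, 0 genes passed too, and MOS stood at 1.48 ± 1.93, MAP2K1 at 0.25 ± 0.60 and RPS6KA3 at 0.062 ± 0.59 (log2 fold change, SE). Directions of the log2 fold changes were not stable. MOS was positive under 13 of 14 alternatives, from 0.50 to 2.05 when 1 library was left out, and reversed to −0.075 without both replicate 3 libraries. DESeq2 gave MOS no p. MAP2K1 reversed under 4, with a range of −0.75 to 0.58 when 1 library was left out and −0.017 without both replicate 3 libraries. RPS6KA3 reversed under 8, to 0.27 with TMM factors, 0.24 with DESeq2 size factors and with DESeq2, 0.062 with the block and 0.24 with the block and TMM factors, and ranged from −0.72 to 0.34 when 1 library was left out. The median of all genes tested moved too, from −0.85 without malathion replicate 2 to 0.41 without control replicate 2. Relative to the median of the same fit, MAP2K1 and RPS6KA3 were negative only without control replicate 2, at −0.19 and −0.18. On that measure MOS was positive in every fit, with 0.26 without both replicate 3 libraries. The cause of the reversals was not tested. At an unadjusted p under 0.05 the number of genes ran from 3 with limma-voom to 413 with DESeq2 size factors. MAP2K2, MAPK3, RPS6KA1 and RPS6KA2 had 11, 18, 45 and 2 counts over all libraries, too few to pass the filter, and 0 in malathion replicate 3, the library with the largest sum. Leaving out a library left 2 against 3, with the spread pooled over both groups.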
